A study of Mus musculus with 5 samples.

Results

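The 50 genes described here build the cornified envelope, the protein shell that replaces the plasma membrane of a dying keratinocyte, or lie in the epidermal differentiation complex, the gene cluster that encodes much of that shell. They were chosen by name out of 31053 genes counted: every symbol beginning with Lce or Sprr, together with Lor, Flg, Flg2, Hrnr, Rptn, Ivl, Crct1, Tgm1, Tgm3, Krtdap, Sbsn, Dmkn, Asprv1 and Cdsn. The set holds 14 Lce1, 6 Lce3, 1 Lce6, 2 Sprr1 and 11 Sprr2 genes, 1 gene each of Sprr3 and Sprr4, and the 14 named genes, and 1 of the Sprr2 entries (Sprr2j-ps) is a pseudogene. In RefSeq (GRCm38.p6) 43 of them lie on chromosome 3 at chr3:92080271-93399442, 3 (Krtdap, Sbsn and Dmkn) on chromosome 7, and Tgm3, Asprv1, Tgm1 and Cdsn on chromosomes 2, 6, 14 and 17.

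Each group is 1 droplet library of single mouse skin cells, so there are no replicates. Untreated epidermis came from wild-type C57BL/6 mice of 10 weeks, non-lesional epidermis from K5. Pp6fl/fl mice of the same age, and lesional whole skin from K5. Pp6fl/fl mice of 18 weeks whose skin lesions are called psoriasis-like. Pp6 is protein phosphatase 6, whose catalytic subunit is encoded by Ppp6c, fl/fl stands for 2 alleles flanked by recombination sites, and K5 is keratin 5, whose promoter is active in basal keratinocytes. The labels spell out neither the recombinase nor the body site, and give C57BL/6 as the strain of all groups. Untreated dermis and imiquimod-treated dermis (5 days on the ear) of wild-type mice of 10 weeks were also sequenced, but held 10 and 0 keratinocytes and enter no comparison of keratinocytes. How many animals went into a library is not given, and cells of both sexes were in the lesional library. Ppp6c was detected in keratinocytes of all 3 libraries, at 80.3 UMIs per 1000000 (CPM, counted as below) in untreated, 72.0 in non-lesional and 51.1 in lesional cells, and the labels do not say whether the counted 3′ end lies in the deleted part.

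In the upper epidermis, keratinocytes lay down involucrin and small proline-rich (Sprr) proteins first, and add loricrin and the late cornified envelope (Lce) proteins as they flatten and die. Transglutaminases join these proteins into 1 insoluble sheet, while filaggrin and its relatives pack the keratin filaments inside. Several Sprr genes are known to be made at high levels in wounded and psoriatic skin, and the 3′ kit used here counts transcripts as unique molecular identifiers (UMIs), so that levels of different genes are not compared with each other.

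Levels are UMIs summed over the keratinocytes of a library and divided by their total (CPM), with 95% intervals that cover counting error only. Clusters were made without the members among the genes used. There were 490 keratinocytes in untreated epidermis (2179746 UMIs, median 2191 per cell), 1574 in non-lesional epidermis (15770674 UMIs, median 9782.5) and 426 in lesional skin (11176767 UMIs, median 21370.5). Mitochondrial UMIs made up less than 0.1% in 292 of the untreated keratinocytes, in 1 of the non-lesional and in 13 of the lesional ones, and whether this bears on the comparisons was tested only by leaving the untreated ones out. Of the lesional keratinocytes 176 held Xist and no Y-linked UMIs and 185 the reverse, whereas no keratinocyte of the other 2 libraries held Xist alone. The lesional skin and the non-lesional epidermis also differ in age and in tissue, which cannot be told apart from the lesion. T cells and innate lymphoid cells (called T cells from here on), which are not known to make these proteins, were read as the level that free RNA gives: the 50 genes summed to 359 CPM there in untreated, 1180 in non-lesional and 38.8 in lesional libraries, beside 5349, 4248 and 3348 CPM in keratinocytes. A gene stood over that background, with a lower bound over 3 times the upper bound in T cells, for 7 members in untreated, 4 in non-lesional and 13 in lesional keratinocytes, of 22, 36 and 36 members with a UMI. In non-lesional epidermis the 4 were Tgm3, Sprr1a, Dmkn and Krtdap. T cells differed from keratinocytes in depth, with medians of 4048 UMIs in untreated, 3640 in non-lesional and 4340 in lesional T cells. A CPM is therefore not free RNA per cell. All T cell levels below, also where they are taken off, are in CPM.

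**Figure D1:**
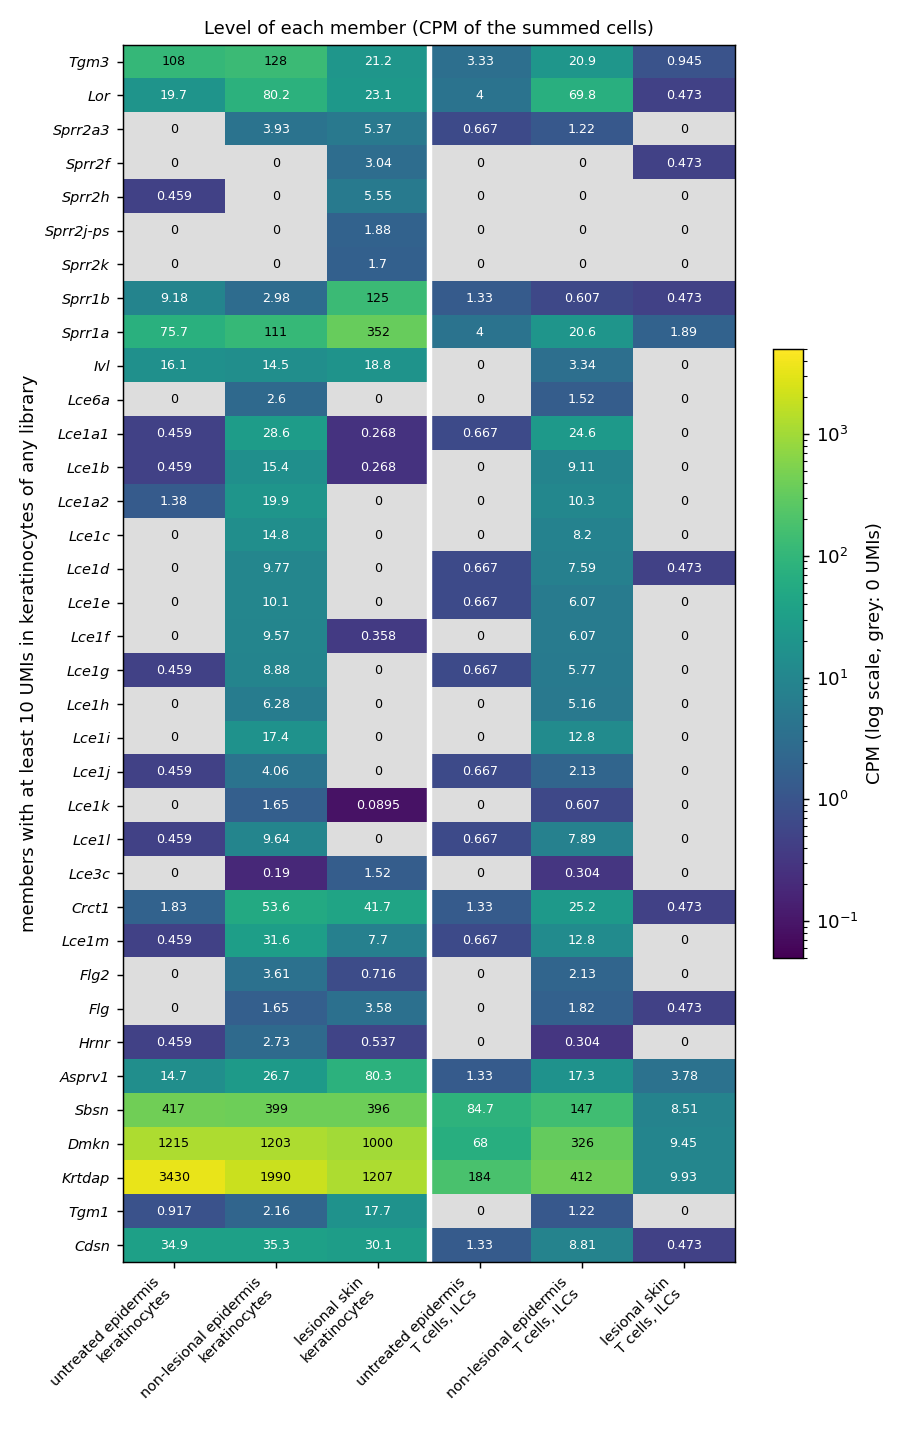
Heat map of the level of each member with at least 10 UMIs in keratinocytes of any library, in CPM on a log colour scale (grey marks 0 UMIs), in keratinocytes (left 3 columns) and in T cells and innate lymphoid cells (right 3 columns) of each library. Lor stands at 80.2 CPM in non-lesional keratinocytes and at 69.8 in T cells of the same library, whereas Sprr1b at 125 CPM in lesional keratinocytes faces 0.473 in T cells.

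The Lce1 genes were close to absent from untreated keratinocytes and appeared at higher levels in non-lesional K5. Pp6fl/fl cells. However, most of this signal sat in 2 cells or was matched, in CPM, by T cells of the same library. Lce1m had 1 UMI in untreated keratinocytes (0.459 CPM), 498 in non-lesional (31.6 CPM) and 86 in lesional cells (7.70 CPM). Lce1a1 had 1, 451 and 3 UMIs (0.459, 28.6 and 0.268 CPM). The other 12 Lce1 genes, which share the short glycine-, serine- and cysteine-rich make-up of the family, ranged from 0 to 1.38 CPM in untreated, from 1.65 to 19.9 in non-lesional and from 0 to 0.358 in lesional cells. All 14 Lce1 genes together gave 4.13 CPM (interval 1.89 to 7.84), 188 (181 to 195) and 8.68 (7.04 to 10.6), so that the non-lesional library stood highest and the intervals of the 3 did not overlap, apart from the pair of untreated and lesional cells. In T cells of the same libraries the family gave 4.67, 119 and 0.473 CPM.

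In the non-lesional library 814 of 1574 keratinocytes held at least 1 Lce1 UMI, yet 2 cells held 1680 of the 2959 UMIs (56.8%). The first had 4105 UMIs in all, of which 1024 came from the 14 Lce1 genes, 252 from Crct1, 151 from Lor and 23 from Flg2. The second had 2898 UMIs, with 656 from Lce1, 167 from Crct1, 105 from Lor, 15 from Flg2 and 8 from Flg. These cells carried all 14 Lce1 genes, and Krt10, a keratin of the spinous layer, had 0 and 1 UMI in them. Both fell into the suprabasal keratinocyte cluster, whose median depth in this library was 15744 UMIs. No other non-lesional keratinocyte had 10 Lce1 UMIs or more. Without the 2 cells, Lce1 stood at 81.1 CPM in non-lesional keratinocytes (76.8 to 85.7), below the 119 CPM of T cells (108 to 131). By cell the order was the reverse: the other 1572 keratinocytes held 1279 Lce1 UMIs and the 939 T cells 392. Median depth was 9782.5 UMIs over all keratinocytes and 3640 in T cells. Which scale fits free RNA better was not tested. In lesional skin 1 cell of 1006 UMIs, with no mitochondrial UMI, held 85 of the 97 Lce1 UMIs, all of them Lce1m, beside 176 UMIs of Lor and 76 of Crct1. The remaining 425 lesional keratinocytes gave 1.07 CPM (0.555 to 1.88). In untreated epidermis the 9 Lce1 UMIs lay in 9 different cells. Within the non-lesional library the family was spread over all cell groups: outside the suprabasal cluster, the other 11 keratinocyte clusters of at least 20 cells ranged from 74.1 to 187 CPM, the highest from 6 UMIs.

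**Figure D2:**
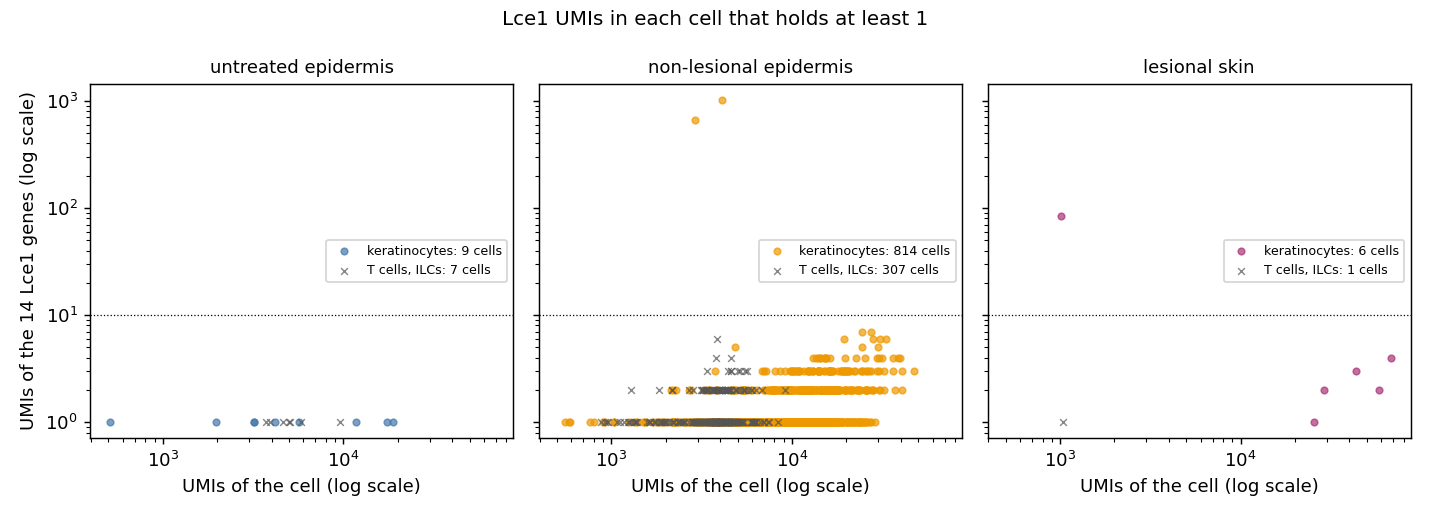
UMIs of the 14 Lce1 genes (log scale) against all UMIs of the cell (log scale), for each keratinocyte (coloured points) and each T cell or innate lymphoid cell (crosses) with at least 1 Lce1 UMI; the dotted line marks 10. Only 2 non-lesional keratinocytes, with 1024 and 656 Lce1 UMIs, and 1 lesional keratinocyte, with 85, lie above the line.

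Lor encodes loricrin, the main protein of the envelope. It had 43 UMIs in untreated keratinocytes (19.7 CPM), 1264 in non-lesional (80.2) and 258 in lesional cells (23.1). In each library a few cells held much of it: 29 of the 43 UMIs were in 1 untreated cell, 377 of 1264 in 3 non-lesional cells and 176 of 258 in the lesional cell named above. With cells of 10 or more Lor UMIs left out, the levels were 6.45, 56.3 and 6.37 CPM, against 4.001, 69.8 and 0.473 in T cells. Thinned to 2000 UMIs per cell, 1.54% of untreated (4 of 260 cells), 12.7% of non-lesional (180 of 1416) and 1.69% of lesional keratinocytes (7 of 415) held a Lor UMI, and so did 12.99% of non-lesional T cells (102 of 785). Unthinned shares were 3.06%, 39.9% and 9.86%, and 21.8% in those T cells. Thinning left out 230 untreated, 158 non-lesional and 11 lesional keratinocytes of lower depth.

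Crct1, a cysteine-rich gene next to Lce1m in the complex, had 4, 846 and 466 UMIs (1.83, 53.6 and 41.7 CPM). The 4 non-lesional cells with 10 or more held 554 of the 846, and without them the level was 18.6 CPM beside 25.2 in T cells. In lesional skin 1 cell held 241 of the 466, and without the 5 cells of 10 or more UMIs 6.17 CPM remained (4.79 to 7.82), beside 0.473 in T cells (0.0120 to 2.63).

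The filaggrin-type genes were scarce in all 3 libraries. Flg, which encodes filaggrin, had 0, 26 and 40 UMIs (0, 1.65 and 3.58 CPM), and 30 of the 40 lesional UMIs came from 1 cell. Flg2 had 0, 57 and 8 UMIs (0, 3.61 and 0.716 CPM), and 38 of the 57 were in the 2 Lce1-rich cells. Hrnr, which encodes hornerin, had 1, 43 and 6 UMIs, all 6 in 1 lesional cell. Rptn, the repetin gene, had a single UMI in keratinocytes, in lesional skin (0.0895 CPM), where T cells held 2 (0.945 CPM). For a gene with no UMI among untreated keratinocytes, such as Flg and Flg2, the total allows up to 1.38 CPM at 3 counts. The other Lce genes were near 0 as well. Lce3c, of the group known to be made in injured epidermis, had 0, 3 and 17 UMIs (0, 0.190 and 1.52 CPM), and Lce3d, Lce3e and Lce3f had 0 to 2. Lce3a and Lce3b had none. Lce6a had 41 UMIs in 32 non-lesional cells (2.60 CPM, T cells 1.52) and none in the other 2 libraries.

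**Figure D3:**
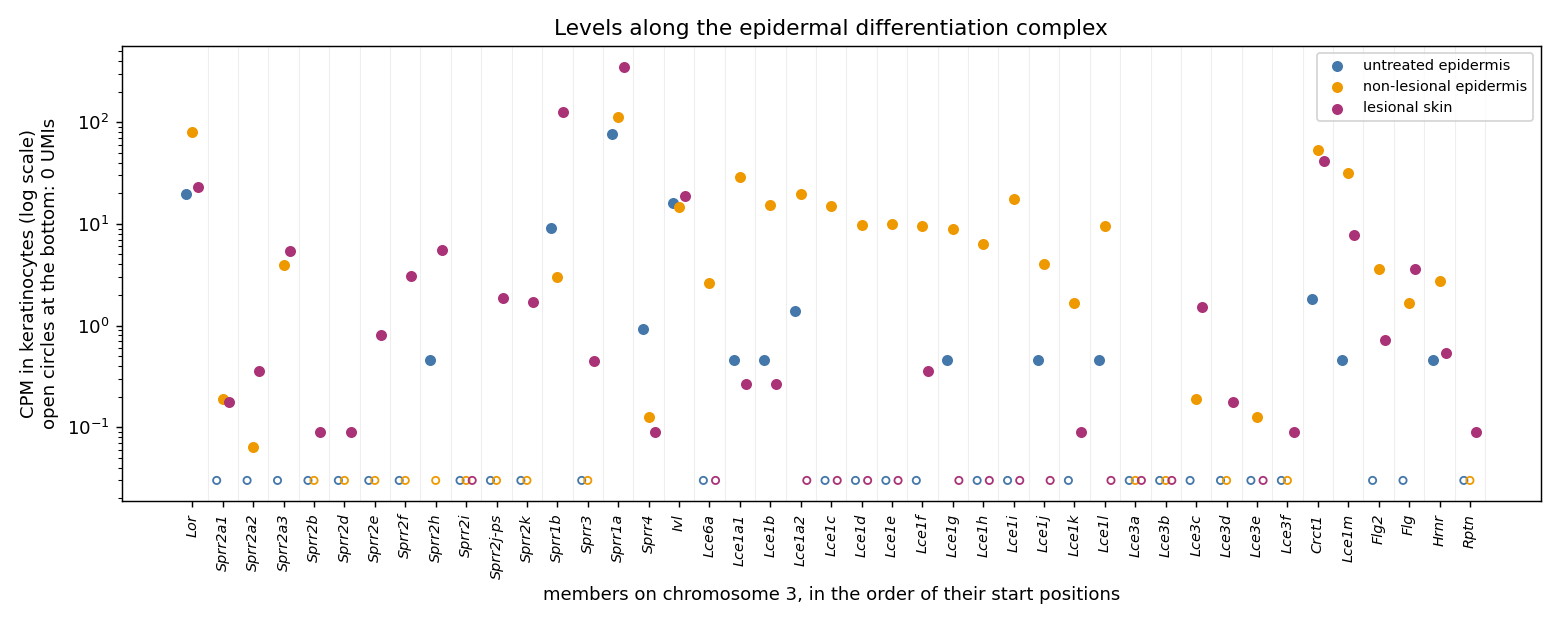
Level in keratinocytes (CPM, log scale) of the 43 members on chromosome 3, in the order of their start positions, in the 3 libraries (colours); open circles at the bottom mark 0 UMIs. The Lce1 genes from Lce1a1 to Lce1l hold the non-lesional point highest throughout, whereas Sprr1b, Sprr1a and most detected Sprr2 genes hold the lesional point highest.

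Small proline-rich proteins bridge other envelope proteins, and both Sprr1 genes were more abundant in lesional keratinocytes than in either epidermis. Sprr1b had 20 UMIs in untreated keratinocytes (9.18 CPM), 47 in non-lesional (2.98 CPM) and 1400 in lesional cells (125 CPM). T cells stayed at 1.33, 0.607 and 0.473 CPM. Sprr1a had 165, 1753 and 3933 UMIs (75.7, 111 and 352 CPM), against 4.001, 20.6 and 1.89 CPM in T cells. Each lesional level was thus also far above that of T cells in the same library.

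The Sprr2 family as a whole had 1 UMI in untreated, 66 in non-lesional and 213 in lesional keratinocytes (0.459, 4.19 and 19.1 CPM). Sprr2a3 had 0, 62 and 60 UMIs and Sprr2h 1, 0 and 62. Sprr2f (34 UMIs, 4 cells), Sprr2j-ps (21 UMIs, 4 cells), Sprr2k (19 UMIs, 1 cell) and Sprr2e (9 UMIs, 1 cell) were seen in keratinocytes of lesional skin alone. Sprr2a1, Sprr2a2, Sprr2b and Sprr2d had at most 4 UMIs in the keratinocytes of any of the 3 libraries and Sprr2i none. The last 500 transcript bases of Sprr2a1 and Sprr2a2 share every 50-base window with another gene, and those of Sprr2a3 share 77.8%, so UMIs of these 3 genes could be split or lost in counting. Sprr1a, Sprr1b, Lor, Crct1 and Lce1m share none, and the other Lce1 genes share 6.65% to 31.9%. Sprr3 had 5 UMIs in 1 lesional cell, and Sprr4 had 2, 2 and 1 UMIs.

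The 2 Sprr1 genes overlapped in part in the cells that held them. In untreated and non-lesional epidermis, Sprr1a was found mainly in an upper hair follicle cluster led by Defb6, Cst6 and Krt79, which held 157 of 165 untreated UMIs (95.2%, 979 CPM) and 1123 of 1753 non-lesional UMIs (64.1%, 1782 CPM), in 39 and 77 cells. The 27 non-lesional keratinocytes with 10 or more Sprr1a UMIs had Krt79, a keratin of the follicle opening, at 16245 CPM, against 424 CPM in the other 1547. In lesional skin 50 cells had 10 or more Sprr1a UMIs and 26 had 10 or more of Sprr1b, with 11 cells in both groups. Lesional Sprr1b lay mainly in a cluster led by Krt6a, Krt16, S100a8 and S100a9 (cluster 1, 124 lesional cells), which held 1164 of 1400 UMIs (83.1%, 237 CPM). That cluster scored highest on markers of the bulge and outer root sheath, a list that holds Krt6a but not Krt16, S100a8 or S100a9. It is given here by its number. Lesional Sprr1a was spread over a bulge and outer root sheath cluster (cluster 10, 39.2%, 453 CPM), cluster 1 (34.2%, 274 CPM) and 4 cells of the upper follicle cluster (23.6%). The 26 Sprr1b-rich cells had Krt1 at 5749, Krt10 at 6769 and Krt16 at 3019 CPM, and the other 400 had 771, 871 and 413. Of the 213 lesional Sprr2 UMIs 168 were in cluster 1 (78.9%), and 150 were in cells that also held Sprr1b. A single cell held 625 of the 1400 Sprr1b UMIs.

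**Figure D4:**
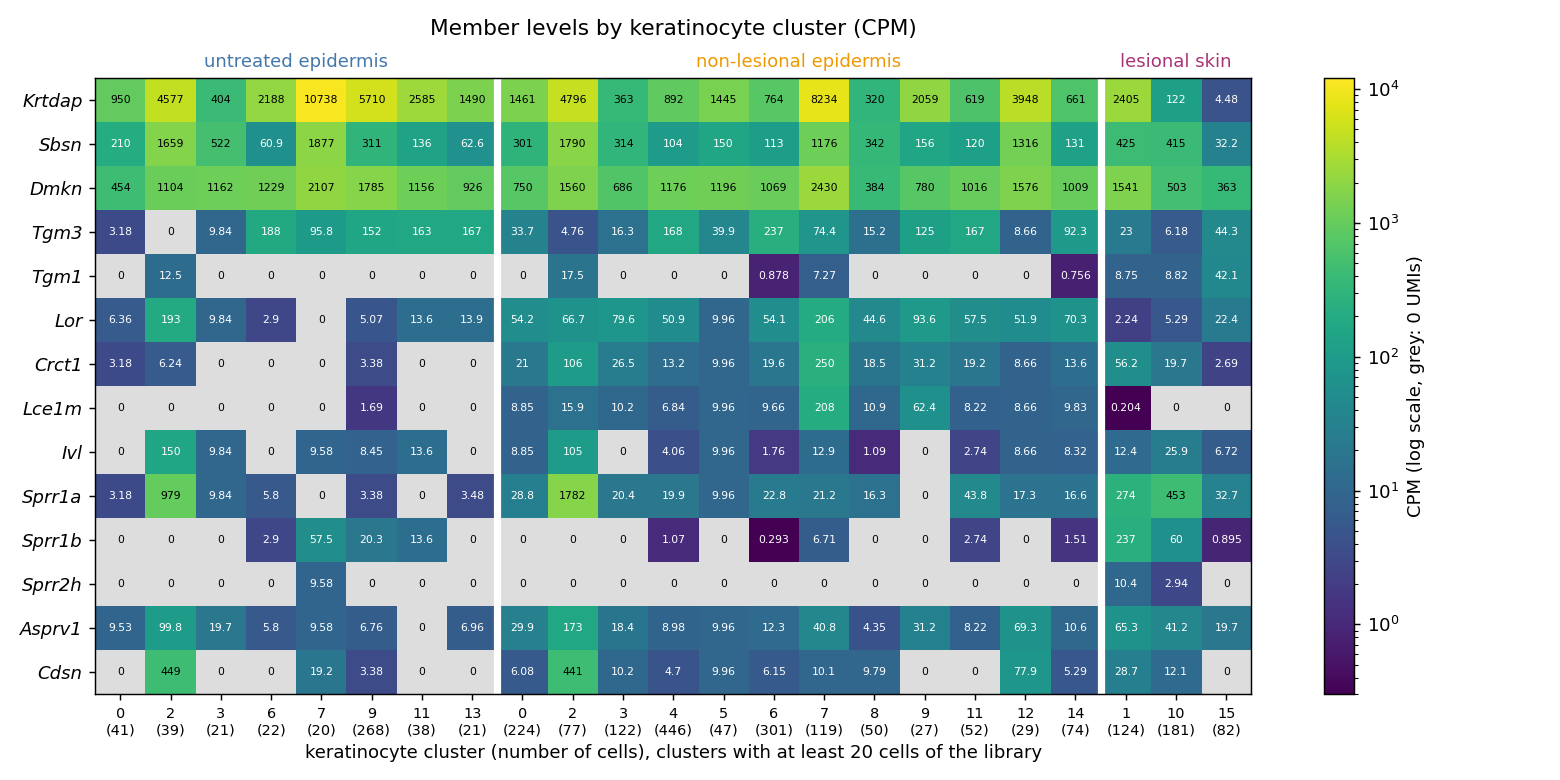
Heat map of 14 members in the keratinocyte clusters with at least 20 cells of a library, in CPM on a log colour scale (grey marks 0 UMIs), with the number of cells in brackets. The Sprr1a and Cdsn rows are brightest in cluster 2 of both epidermis libraries (979 and 1782 CPM for Sprr1a), and the Sprr1b row in lesional cluster 1 (237 CPM).

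Promoter sequence is shown for Sprr1b and Sprr1a, the only Sprr genes measured, and both called higher, in the lesional comparison below, with Sprr2h, Lor and Lce1m beside them. RefSeq start sites were matched for 47 of the 50 members, and the window from 250 bases before to 50 after the start was searched on both strands. The AP-1 motif TGANTCA, bound by Fos and Jun proteins, occurred in 9 of 14 Sprr windows, 0 of 20 Lce windows and 8 of 13 of the rest, so that its share was about alike in the Sprr genes and the rest. That is 36.2% of the 47, against 7.92% of 27025 promoters. The TATA box TATAAA occurred in 44.7% of the members and 14.2% of all. GRHL (AACCNGTT) and KLF (CACCC) motifs were found in 2.13% and 53.2% of members, against 2.02% and 56.8% of all promoters, and the C/EBP motif TTGCNNAA in 17.0% against 10.7%. The AP-1 and TATA motifs do not overlap in the windows printed, a match is no sign of binding, and near-identical gene copies are not independent. Of the Sprr2 genes 7 of 10 held an AP-1 motif, all with 1 between 193 and 198 bases before the start and a TATA box 29 bases before it. The 250 bases before the start of 3 Sprr genes, of Lor and of Lce1m follow, 5′ to 3′ on the strand of the gene, with AP-1 and TATA motifs in capitals. Sprr1b (chr3:92438780-92439029), Sprr1a (chr3:92485882-92486131), Lor (chr3:92083143-92083392) and Lce1m (chr3:93019062-93019311) lie on the minus strand and Sprr2h (chr3:92385435-92385684) on the plus strand.
Sprr1b: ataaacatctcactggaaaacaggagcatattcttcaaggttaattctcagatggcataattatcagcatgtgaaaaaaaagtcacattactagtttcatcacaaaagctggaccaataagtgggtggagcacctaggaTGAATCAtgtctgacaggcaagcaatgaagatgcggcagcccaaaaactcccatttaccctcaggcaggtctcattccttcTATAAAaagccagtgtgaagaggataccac
Sprr1a: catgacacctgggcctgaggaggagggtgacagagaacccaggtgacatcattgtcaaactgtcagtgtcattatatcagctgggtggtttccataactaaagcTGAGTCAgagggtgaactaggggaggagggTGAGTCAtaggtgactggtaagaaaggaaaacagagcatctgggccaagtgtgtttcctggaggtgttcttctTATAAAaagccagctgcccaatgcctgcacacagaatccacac
Sprr2h: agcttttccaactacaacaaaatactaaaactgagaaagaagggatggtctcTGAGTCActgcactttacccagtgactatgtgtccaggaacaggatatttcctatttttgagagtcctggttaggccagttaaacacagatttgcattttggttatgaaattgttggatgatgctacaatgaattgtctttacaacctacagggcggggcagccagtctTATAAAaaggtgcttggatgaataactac
Lor: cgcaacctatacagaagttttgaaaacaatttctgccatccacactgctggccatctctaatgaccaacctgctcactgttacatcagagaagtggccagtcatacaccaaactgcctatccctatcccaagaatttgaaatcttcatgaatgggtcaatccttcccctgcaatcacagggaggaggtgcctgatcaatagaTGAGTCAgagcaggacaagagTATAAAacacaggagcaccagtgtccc
Lce1m: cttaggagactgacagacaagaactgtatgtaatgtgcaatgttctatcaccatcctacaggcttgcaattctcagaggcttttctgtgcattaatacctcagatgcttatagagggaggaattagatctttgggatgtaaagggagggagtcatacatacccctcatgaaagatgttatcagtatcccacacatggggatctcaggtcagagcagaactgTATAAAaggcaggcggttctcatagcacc
The AP-1 motif lay 111 bases before the start in Sprr1b, 146 and 116 in Sprr1a, 198 in Sprr2h and 48 in Lor. Lce1m held a TATA box 29 bases before the start and no AP-1 motif in this window.

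Ivl, which encodes involucrin, the early scaffold of the envelope, was at like levels in the 3 libraries. It had 35, 229 and 210 UMIs (16.1, 14.5 and 18.8 CPM). The upper follicle cluster held 24 of the 35 untreated UMIs and 66 of the 229 non-lesional ones, and 6 non-lesional cells of cluster 1 held 84 more.

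The 2 transglutaminases differed in where lesional skin stood. Tgm1, the membrane-bound cross-linking enzyme, had 2, 34 and 198 UMIs (0.917, 2.16 and 17.7 CPM). Tgm3, the transglutaminase of epidermis and hair follicle, had 236, 2011 and 237 UMIs (108, 128 and 21.2 CPM). Lesional keratinocytes were thus the highest for Tgm1 and the lowest for Tgm3. In non-lesional epidermis Tgm3 lay mainly in 2 clusters named as basal (237 CPM in cluster 6, led by Edn2, Atf3 and Serpinb2, and 168 CPM in cluster 4), of which the lesional library held 0 cells. In lesional skin both genes were highest in the inner root sheath and hair matrix cluster among clusters of at least 20 cells (cluster 15, Tgm1 42.1 and Tgm3 44.3 CPM). That cluster had 82 lesional cells and none in either epidermis library.

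The secreted proteins of the upper layers were the most detected members. Krtdap, a secreted keratinocyte protein linked to differentiation, had 7476, 31376 and 13487 UMIs (3430, 1990 and 1207 CPM). Sbsn (suprabasin) had 908, 6291 and 4430 UMIs (417, 399 and 396 CPM). Dmkn (dermokine) had 2649, 18969 and 11179 UMIs (1215, 1203 and 1000 CPM). The levels of Sbsn and Dmkn were within 1.5-fold over the libraries, whereas Krtdap was highest in untreated cells. Suprabasal keratinocytes (cluster 7) had most Krtdap by level in both epidermis libraries (10738 CPM in 20 untreated and 8234 CPM in 119 non-lesional cells), and cluster 1 held 87.6% of it in lesional skin. In Sbsn 51.0% of the windows at the 3′ end are shared with another gene.

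Asprv1 encodes the protease that trims profilaggrin. It had 32, 421 and 897 UMIs (14.7, 26.7 and 80.3 CPM). In lesional keratinocytes 4 cells of the upper follicle cluster held 321 of the 897, and cluster 1 another 321. Lesional neutrophils, too few to be a comparison here, had Asprv1 at 1380 CPM (1237 to 1535) in 28 of 76 cells. What share of the keratinocyte signal came from them was not tested. Cdsn encodes corneodesmosin, which holds dead keratinocytes together. It had 76, 556 and 336 UMIs (34.9, 35.3 and 30.1 CPM), and the upper follicle cluster held 72, 278 and 147 of them.

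To see how the mutation without a lesion differed from wild type, non-lesional K5. Pp6fl/fl keratinocytes were set against untreated ones. No test is possible with a single library each. The 2 libraries also differed in the makeup of their keratinocytes. Cluster 9, led by Krt2 and Krt10, held 268 of 490 untreated and 27 of 1574 non-lesional cells. Basal cluster 4 held 2 and 446. How far this makeup bears on the ratios over all keratinocytes was not tested, and ratios within clusters are given further below. Genes with 10 or more UMIs in the 2 libraries together and 10 or more CPM in at least 1 count as measured, and a ratio is called when its whole interval is more than 1.5-fold away from 1. Of the 17 members measured, 9 were higher (3.3% of 7768 genes measured were) and 1 was lower (1.98% of genes). Members that were measured through the non-lesional library alone had to differ, so the count is a description. The 9 were 6 Lce1 genes other than Lce1m, Lce1m itself, Crct1 and Lor. Lce1m was 68.8-fold higher (12.3 to 2724), Lce1a1 62.3-fold (11.1 to 2468), Crct1 29.2-fold (11.4 to 108) and Lor 4.06-fold (2.999 to 5.64). Against 0 UMIs in untreated cells, Lce1i was at least 12.7-fold higher, counted against 3 UMIs over the class. Krtdap was the 1 lower member, at 0.580 of the untreated level (0.566 to 0.595), and without the untreated cells of under 0.1% mitochondrial UMIs its ratio was 0.887. The median log2 ratio of the 17 was 1.59, or 1.78 with the 3 members at 0 UMIs set at their bounds, against -0.07 over all genes.

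T cells of the same 2 libraries were compared in the same way. Of 12 members measured there, 11 were higher in the non-lesional library (3.99% of 8373 genes were) and 0 were lower (1.55%), with a median log2 ratio of 1.73. Only 3 members reached 10 CPM in untreated T cells, so this count too is a description. Nor was it particular to the members. Of the lists read further below, epidermal keratins were higher in these T cells in 9 of 9 measured and desmosome genes in 5 of 8. Transcription regulators were higher in 10 of 20 and other genes of the complex in 2 of 8, with 0 lower in each of these lists. Lor was 17.5-fold higher in T cells (7.90 to 48.1), Lce1a1 36.9-fold and Crct1 18.9-fold. With the T cell CPM taken off the keratinocyte CPM in each library, 2 members were higher and 2 lower, and the Lor ratio was 0.655. This step takes the background CPM as alike in cells of unlike depth, which was not tested. With the 3 cells richest in each gene left out, 4 members were higher. Lor then stood 10.2-fold higher, and Lce1m was no longer measured.

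Within clusters the picture depended on the cells taken. In suprabasal cluster 7, 20 untreated cells with 104398 UMIs held no UMI of Lce1, Lor or Crct1, and 15 of the 20 had under 0.1% mitochondrial UMIs. There 9 of 25 members measured were higher in non-lesional cells (0.659% of genes) and 1, Sprr1b, lower (1.07% of genes, 0.117-fold, 0.0406 to 0.379). In this cluster 24 members reached 10 CPM in non-lesional and 6 in untreated cells, so the count of higher members is a description. The Sprr1b call rested on 6 untreated UMIs in 2 cells. It was the same in 7 of 10 alternatives, and the ratio had the opposite sign in 1. The Lce1 level of 1022 CPM in the 119 non-lesional cells of this cluster was 83.1 CPM (70.2 to 97.6) without the 2 Lce1-rich cells. With the 17 members at 0 in 1 library set at their bounds, the median log2 ratio was 0.78 in place of 3.18. When suprabasal cells were instead taken as those with a Krt1 and Krt10 share of at least 0.5 among Krt1, Krt10, Krt5 and Krt14 UMIs, 91 untreated and 116 non-lesional cells remained, with 6 and 15 cells within 0.05 of the limit. Of 14 members measured there, 0 were higher (1.84% of genes) and 2 lower (1.16%), namely Cdsn (0.258-fold, 0.179 to 0.375) and Sprr1b (0.310-fold, 0.174 to 0.571), with Lor at 0.576 (0.379 to 0.902). Of its untreated cells 62 belong to cluster 9, led by Krt2 and Krt10, and of its non-lesional cells 91 belong to cluster 7. Lce1a1 had 24 UMIs in the non-lesional cells of the range and 0 in the untreated ones.

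In the upper follicle cluster (cluster 2) Sprr1a was higher in non-lesional cells, at 1782 against 979 CPM (1.82-fold, 1.54 to 2.17). Crct1 was also higher (17.1-fold, 2.96 to 683, from 1 untreated UMI), and Lor was lower (0.345-fold, 0.212 to 0.567), where 29 of the 31 untreated Lor UMIs came from 1 cell. That is 2 members higher and 1 lower of 11, against 1.14% and 0.845% of genes. In upper follicle cluster 0, 3 of 9 members were higher (0.993% of genes) and 0 lower (1.95%): Tgm3 (10.6-fold), Sprr1a (9.05-fold) and Lor (8.53-fold), each from 1 or 2 untreated UMIs. In basal cluster 6, 2 of 8 were higher (0.886% of genes), namely Lor (18.7-fold, from 1 untreated UMI) and Crct1 (at least 2.25-fold), and 1 was lower (1.35%), namely Krtdap (0.349-fold). In clusters 0 and 6, 9 and 8 members reached 10 CPM in non-lesional cells, but 3 and 4 did in untreated ones. The counts of higher members in these clusters are thus descriptions. In cluster 9, 0 of 5 were higher (1.27%) and 2 lower (0.235%), Krtdap at 0.361-fold and Dmkn at 0.437-fold. In cycling cluster 11, 0 of 6 were higher (1.83%) and 1 lower (2.47%), again Krtdap (0.240-fold), and in cluster 3 none of 8 was called in either direction (0.639% and 1.57% of genes). Low mitochondrial shares touch these values, and their part was not tested within clusters: 20 of the 39 untreated cells of cluster 2, 219 of the 268 untreated cells of cluster 9 and 31 of the 38 of cluster 11 were under 0.1%.

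Lesional whole skin was then set against non-lesional epidermis, which shares its non-lesional library with the comparison above. Of 19 members measured, 4 were higher in lesional keratinocytes (27.9% of 8590 genes were) and 10 were lower (11.1% of genes). The 7 Lce1 genes among the lower members passed the filter only through the non-lesional library, so that the count of lower members is a description, and the share of higher members was not above that of all genes. The 4 higher members were Sprr1b (42.0-fold, 31.4 to 57.5), Tgm1 (8.22-fold, 5.69 to 12.2), Sprr1a (3.17-fold, 2.99 to 3.35) and Asprv1 (3.01-fold, 2.68 to 3.38). These 4 calls were the same under all 12 alternatives tried. Without the 3 richest cells of each gene the ratios were 48.4 for Sprr1b, 9.06 for Tgm1, 2.84 for Sprr1a and 2.45 for Asprv1. In lesional cells with Xist alone and with Y-linked UMIs alone, Sprr1b stood at 237 and 67.1 CPM and Sprr1a at 598 and 225 CPM, each above the non-lesional level. The Sprr1b cell with 625 UMIs was among the Xist cells.

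**Figure D5:**
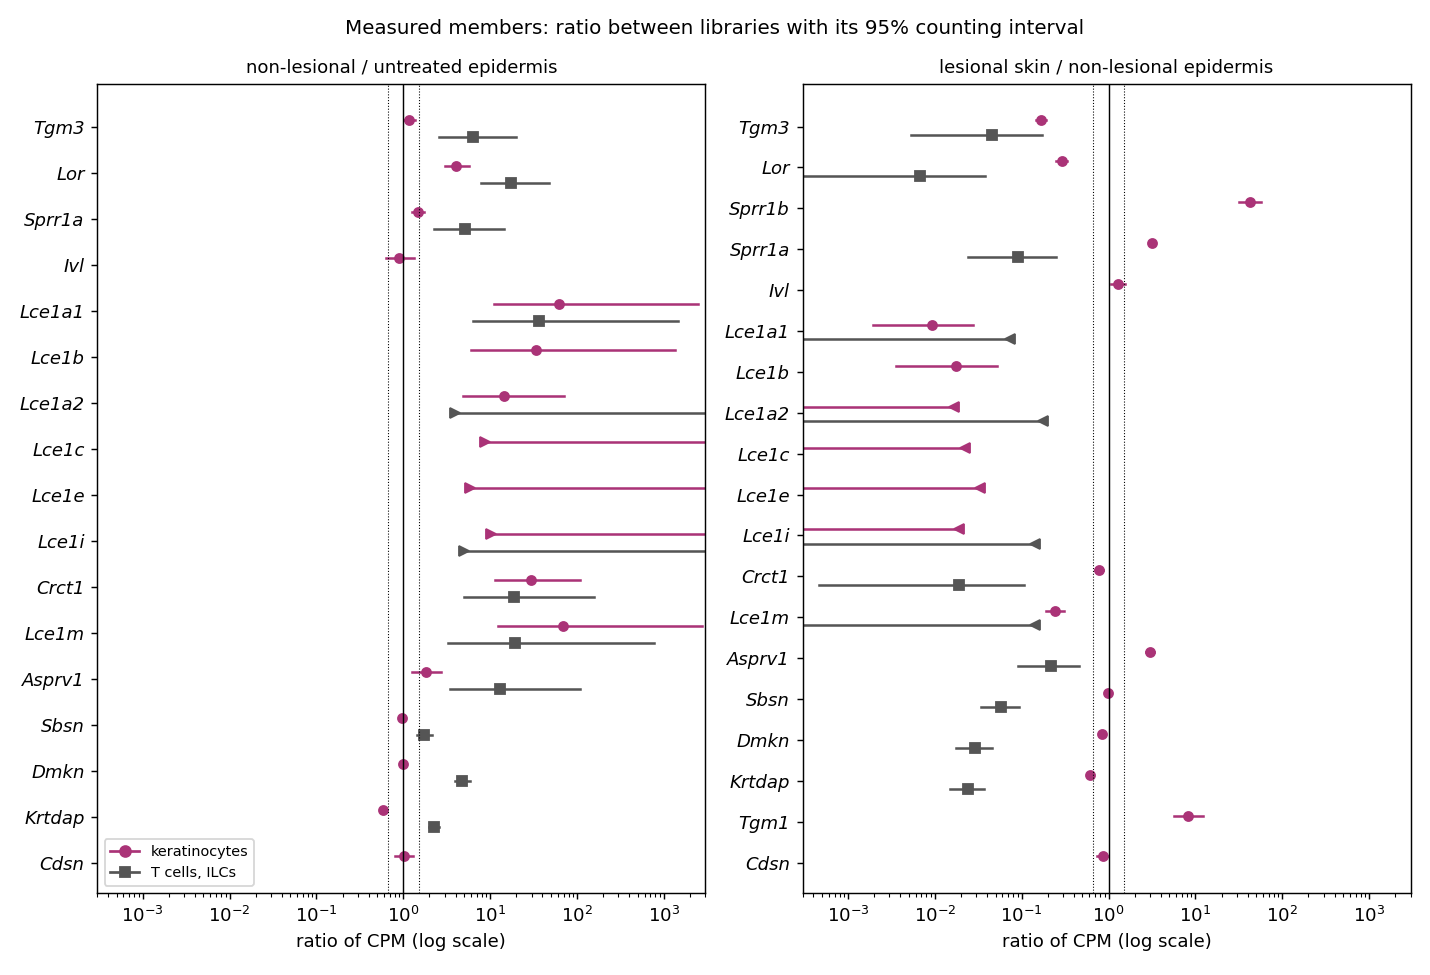
Ratio of CPM between libraries (log scale) with its 95% counting interval for each member measured, in keratinocytes (circles) and in T cells and innate lymphoid cells (squares), for non-lesional over untreated epidermis (left) and lesional skin over non-lesional epidermis (right); triangles mark the inner end of an interval where 1 library had 0 UMIs, and dotted lines mark 1.5-fold. Sprr1b, at 42.0, lies farthest right in the right panel, and in both panels the T cell marks of Lor and Lce1a1 lie on the same side as the keratinocyte circles.

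The 10 lower members were Tgm3, Lor, Krtdap and 7 Lce1 genes. Tgm3 was at 0.166 of the non-lesional level (0.145 to 0.190), a call that also held under all 12 alternatives. Lce1a1 was at 0.00939 (0.00193 to 0.0276), Lce1m at 0.244 (0.192 to 0.307), Lor at 0.288 (0.251 to 0.330) and Krtdap at 0.607 (0.594 to 0.619). Lce1a2, with 0 lesional and 313 non-lesional UMIs, was at least 73.9-fold lower. The median log2 ratio of the 19 was -0.72, against 0.22 over all genes. In T cells of these libraries 12 of 12 members measured were lower in the lesional library (19.9% of 8895 genes) and 0 higher (17.2%), but none reached 10 CPM in lesional T cells, so all were measured through the non-lesional library and nothing is read from the count. Lor there was 0.00677 of the non-lesional level. With T cell levels taken off, 7 members were higher and 2 lower, Lor turned to 2.19-fold higher, and the Lce1a1 call was lost. With each cell weighted equally, Lor and Lce1m turned to 2.998-fold and 2.72-fold higher. In that setting a shallow cell weighs as much as a deep one. A single lesional cell of 1006 UMIs held 176 of the 258 Lor UMIs and 85 UMIs of Lce1m. How far the turn rests on it was not tested.

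No keratinocyte cluster held 20 cells of both libraries, so states were compared by keratin share alone. The 32 lesional cells with a Krt1 and Krt10 share of at least 0.5 were set against the 116 non-lesional ones, and 5 lesional cells lay within 0.05 of the limit. Only 16 of the 32 belonged to cluster 1, and the range held S100a3, a hair shaft cuticle gene, at 9019 against 4.48 CPM and Tchh, the trichohyalin gene of the inner root sheath, at 373 against 3.20 CPM. Of 19 members measured, 9 were higher (12.3% of 7863 genes) and 6 lower (5.54%). The higher ones included Sprr1b (1025 against 23.7 CPM, 43.3-fold), Tgm1 (10.5-fold), Sprr1a (10.4-fold), Asprv1 (6.11-fold), Sprr2a3 (5.28-fold) and Cdsn (2.56-fold). Flg was among them (11.2-fold) on 34 lesional against 5 non-lesional UMIs, and it rests on the 1 cell that held 30 of all 40 lesional Flg UMIs. Sprr2h and Sprr2j-ps, with 0 non-lesional UMIs, were at least 12.1-fold and 9.34-fold higher. They too lay in few cells: over all lesional cells of cluster 1, the richest cell held 20 of 51 Sprr2h UMIs and 17 of 20 Sprr2j-ps UMIs, respectively. Lor (0.298-fold, 0.173 to 0.489), Ivl (0.376-fold, 0.222 to 0.610) and Krtdap (0.465-fold) were lower, as were Lce1a1, Lce1a2 and Lce1i. Tgm3, at 0.966-fold (0.670 to 1.38), was not called here.

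Other genes of the barrier were read from lists of related function. In non-lesional against untreated keratinocytes 3.3% of all 7768 genes measured were called higher and 1.98% lower. The list counts below stand beside these shares, and the lists were not tested as sets. Of the scaffold and cross-linking genes outside the set, 1 of 8 measured was higher (Cnfn, cornifelin, 6.02-fold) and 1 lower (Cstb, 0.578-fold), with a median log2 ratio of -0.28. Among 12 other genes of the complex, S100a8 (13.8-fold, from 2 untreated UMIs) and 2310050C09Rik (3.02-fold) were higher. Of 12 proteases and inhibitors, Klk7, a kallikrein that cuts corneodesmosomes, was higher (2.74-fold), and Serpinb12 (0.473-fold) and the protease inhibitor Cst6 (0.553-fold) were lower. Of 10 barrier lipid genes, Elovl6 (6.42-fold) and Slc27a4 (2.80-fold) were higher. Elovl6 leads cluster 8, an upper follicle and sebaceous cluster with 6 of 490 untreated and 50 of 1574 non-lesional keratinocytes. Whether that bears on the Elovl6 ratio was not tested. None of 9 desmosome genes was called. Of 28 transcription regulators 1 was higher (Pou3f1, 1.88-fold), and of 11 keratins Krt16 was higher (2.97-fold) and 3 were lower, led by Krt2 (0.401-fold) and Krt6a (0.467-fold). Krt2 leads cluster 9, which held 268 of 490 untreated and 27 of 1574 non-lesional keratinocytes. Whether that bears on the Krt2 ratio was not tested. The mitochondrially encoded genes, read for RNA quality, were higher in 8 of 12, with a median of 0.70.

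In lesional skin against non-lesional epidermis more genes of most of these lists were called, as were more of all genes. Of all 8590 genes measured 27.9% were called higher and 11.1% lower. List counts near these shares, such as 3 of 12 lipid genes higher, are not read as results about the list. Desmosome genes were higher in 5 of 11 (Dsc1 3.01-fold, Dsg2 2.20-fold) and lower in 1 (Perp, 0.598-fold). Of 9 scaffold genes, Csta1 was higher (2.24-fold) and Cnfn lower (0.421-fold). Other genes of the complex were higher in 4 of 13, led by S100a3 (149-fold) and Tchh (62.5-fold), and lower in 3, led by 2310050C09Rik (0.159-fold) and S100a13 (0.372-fold). S100a3 and Tchh are among the 10 leading genes of inner root sheath and hair matrix cluster 15, which had 82 lesional cells and none in either epidermis library. Proteases and inhibitors were higher in 6 of 14 (Klk6 9.66-fold, Klk8 3.51-fold) and lower in 3 (Serpinb12 0.328-fold, Cst6 0.491-fold). Lipid genes were higher in 3 of 12 (Ugcg 4.23-fold, Abca12 3.80-fold) and lower in 3 (Acer1 0.242-fold, Elovl6 0.304-fold). Cluster 8, led by Elovl6, had 6 of 426 lesional and 50 of 1574 non-lesional keratinocytes, and whether that bears on the Elovl6 ratio was not tested. Regulators were higher in 14 of 30, led by Prdm1 (12.5-fold) and Sox9 (6.17-fold), and lower in 3, with Fos at 0.301 and Pou2f3 at 0.493 of the non-lesional level. Sox9, like Krt6a below, is on the marker list of the bulge and outer root sheath. Cluster 10, which carries that label, had 181 lesional and 0 non-lesional cells. Whether this makeup bears on the ratios was not tested. Keratins were higher in 6 of 12 and lower in 4: Krt6b had 222 against 0 UMIs and Krt6a was 41.8-fold higher, whereas Krt2, the keratin of the upper spinous layer, had 2 UMIs against 32506 and Krt15 was at 0.103. Mitochondrially encoded genes were higher in 8 of 13.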

How the data were processed

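Single-cell RNA was counted in 5 mouse skin libraries, 1 per group. Per the submitters' processing notes the authors used CASAVA and Cell Ranger with mm10, and per the file headers the software version was 3.0.2. The deposited values are raw UMI counts per gene and cell (10x Chromium 3′ v3, dead cells removed by sorting, per the labels' protocols).

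Cells needed 200 genes and under 20% mitochondrial UMIs. The top 0.8% of Scrublet scores per 1000 barcodes and cells with 10% haemoglobin were removed, leaving 11593 of 13288 barcodes (519 to 4790 per library, 3020790 to 41258087 UMIs). Libraries shared at most 23 barcodes. Counts per 10000, 2000 variable genes without the members, 30 components, 15 neighbours and Leiden resolution 1.0 (seed 1) gave 33 clusters, named from marker lists at a score of 0.25 with 3 markers. Cells of the clusters named as keratinocytes were then pooled and clustered again in the same way, which gave 16 keratinocyte clusters. The cluster numbers given for keratinocytes are those of this second step.

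UMIs were summed per class. Levels have exact Poisson and ratios exact conditional binomial 95% intervals, medians use a pseudocount of 5 CPM, and 3 counts over the class serve as the floor at 0. Classes under 20 cells were not compared, and no p-values were computed. The calling steps were tested on simulated data. Members and lists were chosen with earlier results of these data known. All members are accounted for, with full values for the 14 named genes, the 2 most detected of Lce1, Lce3, Sprr1 and Sprr2, and the 5 highest and lowest calls. Of each other list the 2 largest calls per direction are named, and the keratins of Sprr-rich cells were chosen after their values were seen. Of 15 alternatives 1 was added after seeing the data (leaving out the 3 richest cells of each gene). Software: Python 3.11.15, scanpy 1.11.5, scipy 1.17.1, numpy 2.4.6, pandas 2.3.3, matplotlib 3.10.9, R 4.3.3 and edgeR 4.0.16 (TMM factors only).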

Additional observations from a re-analysis of the deposited data

Results flagged for a closer look

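Asprv1 had a signal in the dermis libraries, which no keratinocyte comparison uses. In imiquimod-treated dermis it had 5321 UMIs over all cells (139 CPM) and in untreated dermis 0, at least 135.2-fold higher against 3 UMIs. Neutrophils held 4232 of those UMIs, at 1177 CPM (1141 to 1213), and 450 of 714 neutrophils had at least 1 (63.0%). Untreated dermis held 0 cells of the neutrophil cluster. The ratio over all cells is therefore between libraries of unlike makeup, and none can be given within neutrophils.

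Lor differed in direction between keratinocyte clusters when non-lesional was set against untreated epidermis, a difference that was not tested. Its ratio was 8.527 in cluster 0, 0.3448 in cluster 2 and 18.68 in cluster 6, and it was at least 7.18-fold higher in cluster 7. The untreated side of these ratios rested on 2, 31, 1 and 0 UMIs, 29 of the 31 from 1 cell, and T cells of the non-lesional library had Lor at 69.8 CPM.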

How the results depend on the processing

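Values are given as members higher, members lower and median log2 ratio. For all keratinocytes, non-lesional against untreated (9, 1 and 1.59), no filter on low values gave 17, 2 and 0.60, equal weight per cell 16, 5 and 2.14, T cell levels taken off 2, 2 and -0.35, thinning to 2000 UMIs 14, 2 and 2.33, and leaving out the 3 richest cells of each gene 4 higher and 0.85. A 2-fold threshold left 0 lower, as did leaving out untreated cells of low mitochondrial share. For suprabasal cells (9, 1 and 3.18), keeping doublets gave 2 lower, resolution 2.0 gave 20 and 0, members among the variable genes 20 and 0, a keratin share of 0.5 gave 0, 2 and -0.14, equal weight 21 and 4, T cell levels taken off 17 and 4, and leaving out the 3 richest cells 1, 0 and 1.84. For lesional against non-lesional cells (4, 10 and -0.72), no filter gave 10, 20 and -0.04, TMM scaling a median of -0.98, equal weight 10 higher, T cell levels taken off 7, 2 and 0.56, Xist cells a median of -1.41, Y-linked cells -0.38, thinning 16 lower and -2.2, and leaving out the 3 richest cells 6 lower and -0.33. Apart from settings that change the cells or genes counted by construction, the cause was not tested. TMM moved the median of all genes in the lesional comparison from 0.22 to 0.01.

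Counting limited the untreated suprabasal cells most: a member's log2 interval spanned a median of ±1.31 there, against ±0.497 and ±0.198 in all keratinocytes of the 2 comparisons. Suprabasal cells were not compared in lesional skin (3 cells), nor, for untreated cells, under the stricter cell filter (17 cells), without low mitochondrial shares (5) or thinned (13), since 20 were required. No paired analysis was possible because each group has 1 library, and no replicate could be left out.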
